A study of Mus musculus with 16 samples.

Results

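The 10 genes described here encode liver enzymes that break down serine, sarcosine and dimethylglycine or carry methyl groups and sulfur through methionine to cysteine. They are Sds, Sdsl, Sardh, Dmgdh, Bhmt, Gnmt, Mat1a, Cbs, Cth and Shmt1, taken as a list of symbols, and all 10 were found among the 54752 genes of the count table. RNA was sequenced from pieces of snap-frozen liver of 16 male Ercc1Δ/− mice, F1 hybrids of C57BL6J and FVBN. All animals were aged 11 weeks and were on 1 of 4 diets since 8 weeks of age, with 4 animals a diet. The control diet was the synthetic standard AIN93G. The high-protein diet is labelled as low in carbohydrate (70%) and high in protein (about 194%), the low-protein diet as low in protein (70%) and high in carbohydrate (about 112%), and the low-fat diet as low in fat (70%) and high in carbohydrate (about 112%). The labels do not say what these percentages are relative to. Diets were matched for calories and given without restriction to randomized animals, so high protein and low carbohydrate were never separated. Ercc1 encodes part of a DNA repair nuclease, and all 16 animals carried the same progeroid genotype, with no wild-type animal among them. The labels do not give litters or cages, so p-values measure only the spread between these samples.

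Methionine is activated to S-adenosylmethionine, which gives its methyl group away and becomes homocysteine. Homocysteine is either methylated again to methionine, with betaine or folate as the donor, or joined to serine and passed to cysteine by transsulfuration. Surplus methyl groups are placed on glycine, and the sarcosine formed is oxidised back to glycine in mitochondria. The liver is the main organ of this metabolism. Serine dehydratase is a classic example of a liver enzyme that follows protein intake, fasting, glucagon and glucocorticoids.

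Each library held at least 35243594 counts. The deepest library of a diet held 46051218 counts among the controls, 46899907 on the high-protein diet, 43404769 on the low-protein diet and 112789127 on the low-fat diet. Levels are given as CPM, counts scaled to a common library total, on library sizes scaled by TMM, a normalisation that assumes most genes to be alike between libraries. Hepatocyte transcripts were abundant throughout, with 7 of 8 listed markers found in the table and a summed level of 80300 to 112000 CPM. Kidney transcripts were present as well: 20 kidney genes summed to 97.2 to 5960 CPM in control, 1.51 to 1780 in high-protein, 764 to 1410 in low-protein and 1160 to 3600 in low-fat livers. In high protein 1, 14 of the 20 kidney genes were at 0, Umod, Kap and Slc34a1 among them. Control 4 stood apart from the other controls in several of the 10 genes, so results that rest on it are given with and without it. In bulk liver, fewer cells of a type and less RNA per cell cannot be told apart.

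Over all 16 libraries none of the 10 genes passed an adjusted p of 0.05 in any comparison of diets. In edgeR's quasi-likelihood test with Benjamini-Hochberg adjustment over 17833 genes, 0 genes (0%) passed in each of the 6 pairs of diets, in high protein against the mean of the other diets, and in the joint test of the 4 diets. At an unadjusted p below 0.05 the joint test held 4 of the 10 genes, Sds, Sdsl, Sardh and Gnmt, against 6.59% of all genes tested. Without control 4 it held 6, with Mat1a and Cth added, against 10.9% of 18090 genes, and over the alternatives tried the count ran from 2, with the kidney level as a covariate or without high protein 4, to 7, without control 1. The values below therefore describe these 16 livers. The list was chosen with earlier results of these data known, and several of its genes varied together across livers. Counts of its genes beside shares over all genes are therefore description and no test of the list. Sds, Gnmt and Sardh were at higher levels in all 4 high-protein livers than in all 8 livers of the low-protein and low-fat diets, and Sds, Sdsl, Mat1a, Cth and Gnmt were far above their group in a single control liver.

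**Figure D1:**
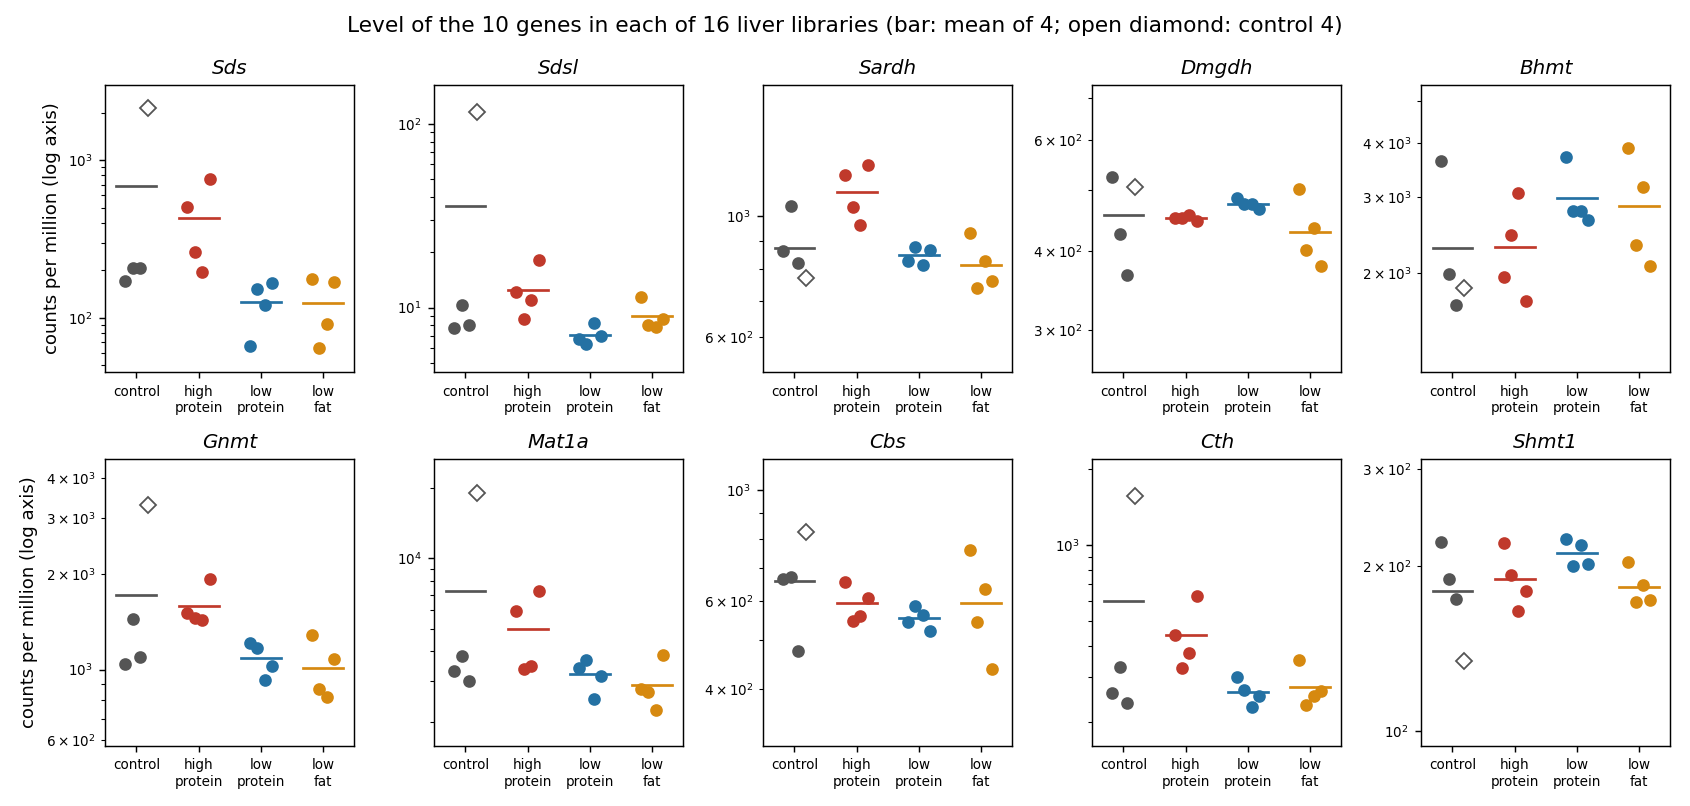
Level of each of the 10 genes in CPM (log axis, scaled to each gene) in the 4 libraries of each diet. Points are libraries, bars are means of 4, and the open diamond is control 4, which reaches 2140 CPM for Sds against at most 206 in the other controls.

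Sds (ENSMUSG00000029597.14, chr5:120476526-120483932 in GRCm38, plus strand) encodes the main serine dehydratase, which splits serine to pyruvate and ammonia. Its level in controls 1 to 4 was 170.1, 205, 206 and 2140 CPM, and in high protein 1 to 4 it was 505, 259, 196 and 756 CPM. In low protein 1 to 4 Sds was at 66.6, 152, 121 and 167 CPM, and in low fat 1 to 4 at 176, 64.7, 91.6 and 167 CPM. All high-protein livers lay above all livers of both high-carbohydrate diets, while the lowest of them, high protein 3, lay within the range of controls 1 to 3. All low-protein livers lay below all controls, as was the case for 0.869% of genes in that direction. Sds was the most variable of the 10 genes, with its highest library 33.1-fold above its lowest. The opposite-strand genes Plbd2 and Gm15690 overlap Sds, and 365 aligned bases of its longest transcript match a Plbd2 transcript at 99.7% identity.

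Sdsl (ENSMUSG00000029596.13, chr5:120458186-120472810, minus strand), the neighbouring gene for a serine dehydratase-like enzyme, was expressed at a far lower level. It was at 7.75, 10.4, 8.01 and 116 CPM in controls 1 to 4 and at 12.1, 8.65, 11.0 and 18.1 CPM in high protein 1 to 4. With low protein the 4 livers held 6.78, 6.37, 8.22 and 7.02 CPM, and with low fat 11.4, 8.05, 7.85 and 8.65 CPM. High-protein livers lay above low-protein livers without overlap, but not above low-fat livers, of which low fat 1 was within the high-protein range. Control 4 held 13.3 times the mean of controls 1 to 3, the largest such ratio among the 10 genes, followed by 11-fold for Sds.

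Gnmt (ENSMUSG00000002769.9, chr17:46725664-46729168, minus strand) encodes glycine N-methyltransferase, which uses up S-adenosylmethionine by methylating glycine to sarcosine. The controls held 1044, 1440, 1094 and 3287 CPM of Gnmt, and the high-protein livers 1502, 1457, 1434 and 1923 CPM. Levels were 1213, 1168, 928 and 1027 CPM with low protein and 1281, 869, 823 and 1081 CPM with low fat. The 3 lowest high-protein livers lay close together and still above all 8 livers of the high-carbohydrate diets, and high protein 4 stood above them. Of the controls, replicates 1 and 3 were within the range of the high-carbohydrate diets and control 4 was 2.76 times the mean of the other 3.

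Sardh (ENSMUSG00000009614.16, chr2:27188393-27248337, minus strand) encodes the mitochondrial sarcosine dehydrogenase, which returns sarcosine to glycine. It was at 864, 1044, 822 and 770.2 CPM in controls 1 to 4 and at 1192, 1040, 963 and 1245 CPM in high protein 1 to 4. The low-protein livers held 830, 881, 816 and 868 CPM and the low-fat livers 934, 741, 830 and 760 CPM. High-protein livers again lay above all 8 livers of the high-carbohydrate diets. Sardh differed from Sds and Gnmt in control 4, which was the lowest control, at 0.846 of the mean of the others. Sardhos, on the opposite strand, overlaps Sardh, as Gm26904 does Gnmt, Gm15622 does Bhmt, and Smcr8 and Gm24945 do Shmt1, while Gm43314 overlaps Cth on its own strand.

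The promoters of Gnmt and Sardh are shown because these genes stood higher in all high-protein livers than in all low-protein and low-fat livers. The promoter of Shmt1 is shown as that of a folate enzyme gene whose levels overlapped between all diets. Each is the longest stretch outside annotated exons within the 250 bases before the gene start of RefSeq (GRCm38.p6), read 5′ to 3′ on the gene's strand, with motif matches in capitals. Gnmt lies at chr17:46729169-46729415, Sardh at chr2:27247415-27247553 and Shmt1 at chr11:60811266-60811466, all on the minus strand. The stretches of Sardh and Shmt1 lie inside the longer gene models of the count table, outside exons.
Gnmt: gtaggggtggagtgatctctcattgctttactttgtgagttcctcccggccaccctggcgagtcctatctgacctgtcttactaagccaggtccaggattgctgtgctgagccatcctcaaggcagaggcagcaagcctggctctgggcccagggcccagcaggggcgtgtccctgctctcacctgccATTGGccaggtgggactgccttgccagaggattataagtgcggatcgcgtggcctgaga
Sardh: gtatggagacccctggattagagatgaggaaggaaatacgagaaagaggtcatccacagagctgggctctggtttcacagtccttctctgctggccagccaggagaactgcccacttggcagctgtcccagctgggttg
Shmt1: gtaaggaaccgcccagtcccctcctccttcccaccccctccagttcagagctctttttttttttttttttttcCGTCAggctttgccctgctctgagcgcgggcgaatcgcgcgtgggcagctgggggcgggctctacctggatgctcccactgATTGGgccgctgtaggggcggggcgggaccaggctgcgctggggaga

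No promoter sequence was found for Sds, Sdsl, Mat1a and Cth, which were therefore not searched. Promoter sequences were found for the other 6 of the 10 genes. Their 250-base windows were searched on both strands for 7 motifs: the glucocorticoid receptor half-site AGAACA (present in 16.1% of 32851 promoter windows of that length), the cAMP response element half-site TGACG (17.8%), the C/EBP motif TTGCNNAA (9.56%), the FOXO and FOXA motif TGTTTAC (3.17%), the E-box CACGTG (6.02%), the CCAAT box (33.8%) and the TATA box TATAAA (12.4%). Gnmt held 1 match, a CCAAT box on the opposite strand 62 to 58 bases before the start, seen above as ATTGG. Shmt1 held a TGACG on the opposite strand 128 to 124 bases before the start and a CCAAT box 47 to 43 bases before it. Bhmt held 1 CCAAT box, Cbs held 2 CCAAT boxes and an E-box, and none of the 7 letter patterns was in the windows of Sardh and Dmgdh. No matches overlapped each other. A match is a string of letters, and its absence says nothing about binding elsewhere.

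Dmgdh (ENSMUSG00000042102.7, chr13:93674433-93752833, plus strand) encodes dimethylglycine dehydrogenase, the step before Sardh, which takes up the product of betaine use. Its levels were the steadiest of the 10 genes, with 1.43-fold between the lowest and highest of 16 livers. The controls held 525, 427, 367 and 506 CPM and the low-fat livers 501, 403, 436 and 379 CPM. With high protein the range was only 447 to 457 CPM and with low protein 467 to 486 CPM, so that all high-protein livers lay just below all low-protein livers. This order was the reverse of that of Sardh, but the difference of the means was small, 452 ± 3.77 against 476 ± 8.1 CPM (SD, n = 4). AW495222, on the opposite strand, shares 218 bases with Dmgdh at 100% identity, and Gm15620 also overlaps it.

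Bhmt (ENSMUSG00000074768.6, chr13:93616675-93637961, minus strand) encodes betaine-homocysteine methyltransferase, which rebuilds methionine from homocysteine. The controls held 3632, 1992, 1685 and 1843 CPM and the high-protein livers 1963, 2448, 3071 and 1725 CPM. Levels with low protein were 3720, 2783, 2790 and 2661 CPM and with low fat 3897, 2322, 3163 and 2082 CPM. All diets overlapped, and control 1, low protein 1 and low fat 1 were each the highest of their group. Mean levels were lower with high protein (2302 ± 595 CPM, SD, n = 4) than with low protein (2988 ± 491), the opposite order from Sds. Part of the Bhmt transcript has near-identical copies, with 545 bases matching Gm5096 at 99.6% identity and 477 bases matching the pseudogene Bhmt-ps1 at 99.4%. How reads shared with these copies were counted is not known, so the level of Bhmt is uncertain. Gm5096 was at 323.6 ± 125 CPM and Bhmt-ps1 at 36.7 ± 16.4 CPM in control (SD, n = 4).

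Mat1a (ENSMUSG00000037798.7, chr14:41105035-41124412, plus strand) encodes the liver form of methionine adenosyltransferase, which makes S-adenosylmethionine. It was at 3286, 3817, 2999 and 19040 CPM in controls 1 to 4 and at 5973, 3354, 3466 and 7258 CPM in high protein 1 to 4. The low-protein livers held 3417, 3696, 2514 and 3146 CPM and the low-fat livers 2754, 2674, 2260 and 3869 CPM. High protein 1 and 4 lay above all livers of the high-carbohydrate diets and high protein 2 and 3 lay among them. Control 4 held 5.65 times the mean of the other controls.

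Cbs (ENSMUSG00000024039.14, chr17:31612623-31637199, minus strand) encodes cystathionine beta-synthase, which joins homocysteine to serine and commits it to transsulfuration. It was at 663, 670.3, 476 and 826 CPM in control, 656, 548, 560.2 and 608 CPM with high protein, 546, 587, 562 and 522 CPM with low protein and 761, 544, 633 and 439 CPM with low fat. All diets overlapped. Its gene model differs in version between the table and the annotation used here for names, and the position is that of the table.

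Cth (ENSMUSG00000028179.12, chr3:157894248-157925077, minus strand) encodes cystathionine gamma-lyase, which releases cysteine in the next step. Its levels in controls 1 to 4 were 260.1, 330.4, 237 and 1574 CPM, and in high protein 1 to 4 they were 441, 326, 374 and 628 CPM. The low-protein livers held 299, 267, 229 and 253 CPM and the low-fat livers 352, 234, 252 and 263 CPM. High-protein livers lay above all low-protein livers, and only low fat 1 among the low-fat livers reached their range. The 2 genes of transsulfuration thus differed in control 4, which held 5.71 times the mean of the other controls for Cth and 1.37 times for Cbs.

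Shmt1 (ENSMUSG00000020534.14, chr11:60788104-60811718, minus strand) encodes the cytosolic serine hydroxymethyltransferase, which converts serine and glycine into each other with folate. The controls held 221, 189, 174 and 134 CPM and the high-protein livers 219.7, 192, 165 and 179.8 CPM. Levels were 224, 199.5, 218 and 201 CPM with low protein and 203, 172, 184 and 173 CPM with low fat. All diets overlapped, and control 4 was the lowest of the 16 livers, at 0.689 of the mean of the other controls.

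High protein against low protein asks how the genes differed between the diets at the ends of the protein range. In all, 5 of the 10 genes, Sds, Sdsl, Sardh, Gnmt and Cth, lay above without overlap, against 3.15% of all genes, and Dmgdh lay below without overlap, against 3.47%. Sds was 3.39-fold higher (log2 fold change 1.76, SE 0.74, 95% interval 0.19 to 3.33, edgeR adjusted p = 0.947). Sardh was 1.31-fold higher (log2 fold change 0.39, SE 0.13, edgeR adjusted p = 0.921), a smaller difference with a narrower error. Log2 fold changes were 0.81 for Sdsl, 0.75 for Cth, 0.65 for Mat1a, 0.54 for Gnmt and 0.10 for Cbs, and -0.07 for Dmgdh, -0.16 for Shmt1 and -0.38 for Bhmt. Of the 10, 7 were above 0, with a median of 0.47, where 47.5% of all genes were above 0 with a median of -0.016. At an unadjusted p below 0.05 there were 2 of the 10, Sds and Sardh, against 5.17% of all genes.

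Against low fat, the other diet high in carbohydrate, high protein gave much the same order of the genes. Sds, Sardh and Gnmt lay above without overlap, against 4.23% of all genes, and these 3 were also the ones above all 8 livers of the high-carbohydrate diets, against 1.22% of all genes. None of the 10 lay below all 8, against 0.925%. The log2 fold change was 1.78 for Sds (SE 0.74, edgeR adjusted p = 0.531), 0.44 for Sardh (SE 0.13, adjusted p = 0.389) and 0.64 for Gnmt (SE 0.30, adjusted p = 0.543). Of the others, Mat1a was at 0.79, Cth at 0.68, Sdsl at 0.48, Dmgdh at 0.07, Shmt1 at 0.05, Cbs at 0.00 and Bhmt at -0.32. The median of the 10 was 0.46, against -0.024 over all genes, and 3 of the 10 were at an unadjusted p below 0.05, against 9.08%. The 2 comparisons share the high-protein livers.

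**Figure D2:**
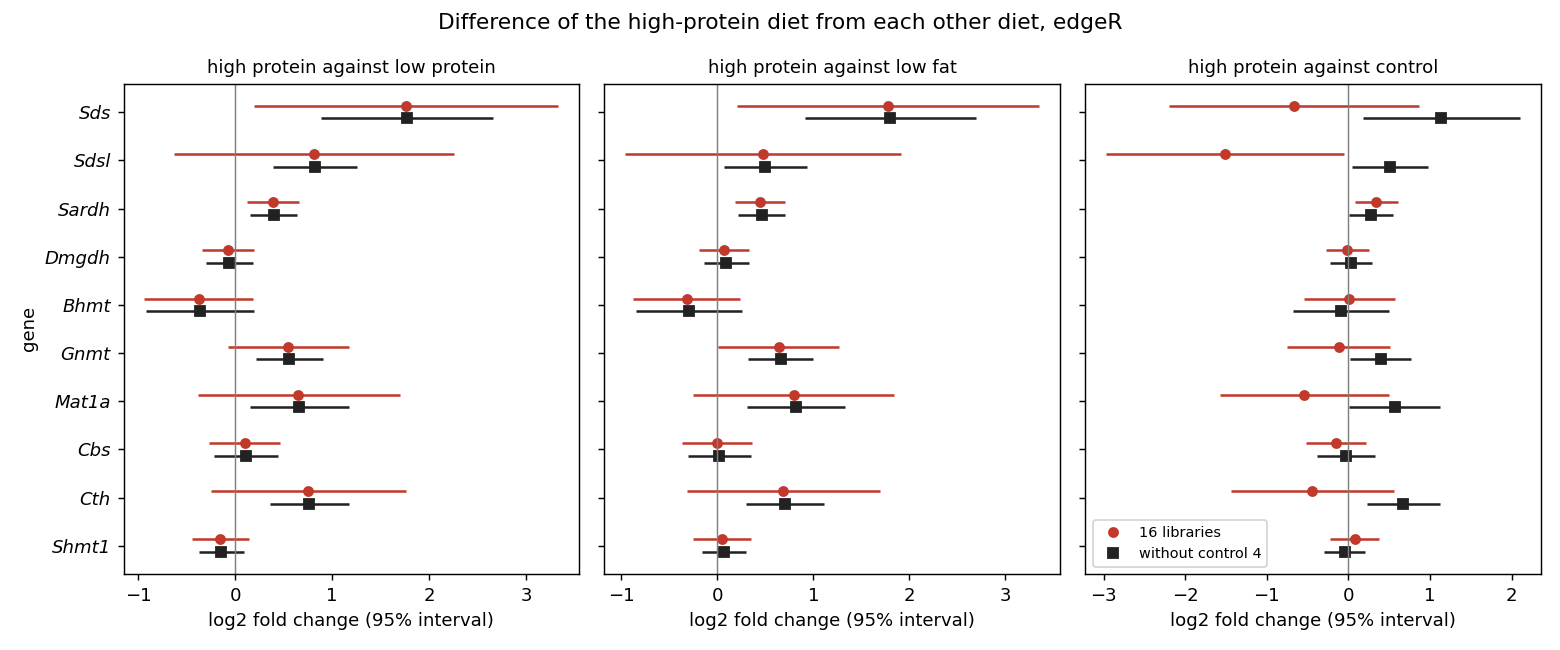
Log2 fold change of high protein against low protein, low fat and control for each gene, with 95% intervals from edgeR, over 16 libraries (circles) and without control 4 (squares). Against control the estimate for Sds goes from -0.67 to 1.14, while against low protein it stays at 1.76 and 1.77 with a narrower interval.

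Against control, the direction of 5 of the genes depended on control 4. Over 16 libraries Sds was at a log2 fold change of -0.67, Sdsl at -1.51, Mat1a at -0.54, Cth at -0.44 and Gnmt at -0.12, and without control 4 they were at 1.14, 0.51, 0.57, 0.67 and 0.40. Sardh was higher in both fits, at 0.34 (SE 0.13, edgeR adjusted p = 0.762) and at 0.28 without control 4. The values of Bhmt, Dmgdh and Shmt1 lay near 0 and also changed sign, and Cbs went from -0.15 to -0.03. At an unadjusted p below 0.05 there were 2 of the 10 over 16 libraries, Sdsl and Sardh in opposite directions, against 6.22% of all genes, and 6 of the 10 without control 4, all higher with high protein, against 8.79% of 18090 genes. Voom with sample quality weights over 16 libraries held 0 of 10.

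Control 4 also widened the error of comparisons it is not part of, since all diets share 1 estimate of the spread: the SE of Sds against low protein was 0.74 with it and 0.42 without it. Without it, 6 of the 10 genes were at an unadjusted p below 0.05 for high protein against low protein (11.1% of all genes) and 6 against low fat (17.1%), with adjusted p-values from 0.182 for Sds upward in the first and from 0.0806 for Sds upward in the second. No member passed against low fat without control 4, where 0.105% of genes did. With control 4 kept, voom with sample quality weights held 6 of 10 at an unadjusted p below 0.05 against low protein. It held 5 against low fat and 6 against the mean of the other diets. Over all 17833 genes it held 2138, 3479 and 2215, and it called none of the 10 at an adjusted p of 0.05. High protein against the mean of the other diets held 1 of 10 at an unadjusted p below 0.05 over 16 libraries, Sardh at a log2 fold change of 0.39 (edgeR adjusted p = 0.499), against 7.12%. Control 4 was singled out by the levels of these same genes, Sds most of all, so the test without it is not independent of that choice. Without control 4, Sds was past the threshold in that comparison with a log2 fold change of 1.57 (SE 0.31, edgeR adjusted p = 0.0474), against 0.409% of genes, and Cth followed at 0.71 (adjusted p = 0.0533) and Gnmt at 0.54 (adjusted p = 0.0806).

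Both high-carbohydrate diets were set against control as well, with the same dependence on 1 liver. For low protein, 5 of the 10 genes were at an unadjusted p below 0.05, all lower, against 7.08% of all genes. They were Sds at a log2 fold change of -2.43, Sdsl at -2.32, Cth at -1.20, Mat1a at -1.19 and Gnmt at -0.66 (edgeR adjusted p = 0.682 for each). Without control 4 the same differences were -0.63, -0.31, -0.09, -0.10 and -0.16, and 0 of the 10 genes were at an unadjusted p below 0.05, against 3.65%. For low fat the same 5 genes were at an unadjusted p below 0.05, against 9.22%, with -2.45 for Sds, -1.98 for Sdsl, -1.33 for Mat1a, -1.13 for Cth and -0.76 for Gnmt (edgeR adjusted p = 0.53 for each), and -0.66, 0.01, -0.25, -0.03 and -0.26 without control 4, when again 0 of the 10 were at an unadjusted p below 0.05, against 5.57%. Voom with sample quality weights also held 0 of 10 in both comparisons over 16 libraries. These comparisons share the control livers. Between low fat and low protein, 0 of 10 genes were at an unadjusted p below 0.05 in edgeR, against 2.38% of all genes, limma-voom also held 0 of 10, and DESeq2 held 0 of the 8 genes it gave a p for. The median log2 fold change there was -0.06.

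Within a diet, livers differed in step across part of the list. High protein 4 was the highest and high protein 1 the second highest of the 4 high-protein livers for 6 of the 10 genes, Sds, Sdsl, Sardh, Gnmt, Mat1a and Cth. The same 2 livers differed in kidney transcripts, with 948 and 1.51 CPM. Control 4 was the highest of all 16 livers for Sds, Sdsl, Gnmt, Mat1a, Cbs and Cth, and all 10 genes together took 2.35% of its counts against 0.851% to 1.36% in the other 15 libraries. It also had the highest summed level of 10 periportal hepatocyte markers, 29700 CPM. Those markers summed to 11700 CPM at the lowest in control, and to 14400 to 19700 CPM in high-protein livers, highest in high protein 4. The sum was 10700 to 12800 CPM in low-protein and 10900 to 13200 CPM in low-fat livers. Pericentral markers summed to 8770 to 10200 CPM in control, 10800 to 11700 in high-protein, 9400 to 11100 in low-protein and 8180 to 9000 in low-fat livers. The periportal sum thus lay higher with high protein than with either high-carbohydrate diet, as Sds, Gnmt and Sardh did, and its part in their levels was not tested. With the kidney level as a covariate Sds was at a log2 fold change of 1.6 against low protein and 1.55 against low fat, Sardh at 0.34 and 0.37, and Gnmt at 0.51 and 0.59. Sardh was then the 1 gene of the 10 at an unadjusted p below 0.05 against either diet, where without the covariate there were 2 and 3.

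**Figure D3:**
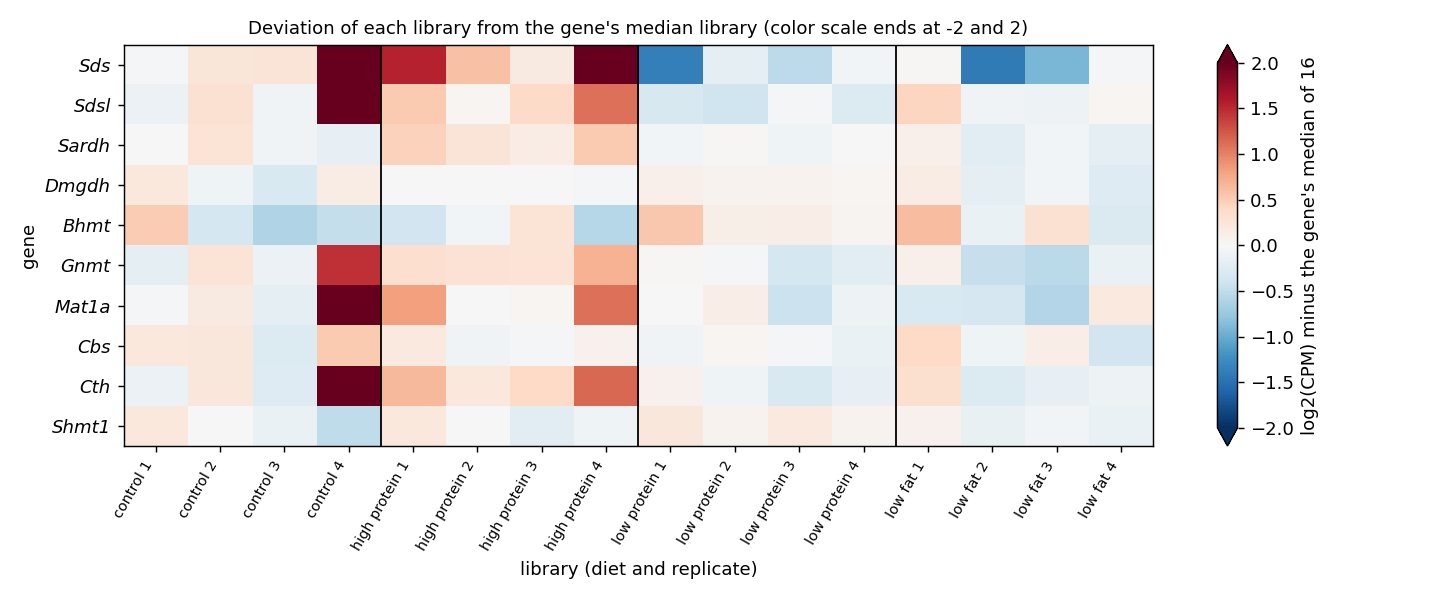
Log2 CPM of each gene in each library minus the gene's median over 16 libraries, with red above and blue below and the color scale ending at -2 and 2. Control 4 and, less so, high protein 1 and 4 are red for Sds, Sdsl, Mat1a, Cth and Gnmt, while Bhmt and Shmt1 are blue in control 4.

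Likeness between the genes was described by Spearman's rank correlation of log2 CPM over the 16 livers, which share diets, depth and the outlying control. Gnmt and Cth were the most alike, at 0.93, and at 0.91 without control 4. The coefficient was 0.84 for Sds and Gnmt, 0.80 for Gnmt and Mat1a, 0.79 for Mat1a and Cth, and 0.76 for Sds and Sdsl. Sardh stood nearer to this set without control 4, with the coefficient going from 0.61 to 0.87 with Gnmt and from 0.61 to 0.88 with Cth. Dmgdh, Bhmt and Shmt1 had positive coefficients with each other. Dmgdh was at 0.56 with Bhmt and 0.50 with Shmt1, and both values were 0.77 without control 4. Bhmt and Shmt1 were at 0.52, and at 0.45 without control 4. With the set of Sds, Dmgdh did not run in the opposite direction, at -0.01 with Sds, 0.04 with Mat1a and 0.27 with Cth. Bhmt ran against Sds, at -0.61, and against Mat1a, at -0.52. Bhmt and Dmgdh lie near each other on chromosome 13, as Sds and Sdsl do on chromosome 5. Bhmt2, a related methyltransferase gene beside them and named after its values were seen, was at 227.5 ± 20.2 CPM with high protein and 228.7 ± 17.1 with low protein (SD, n = 4).

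**Figure D4:**
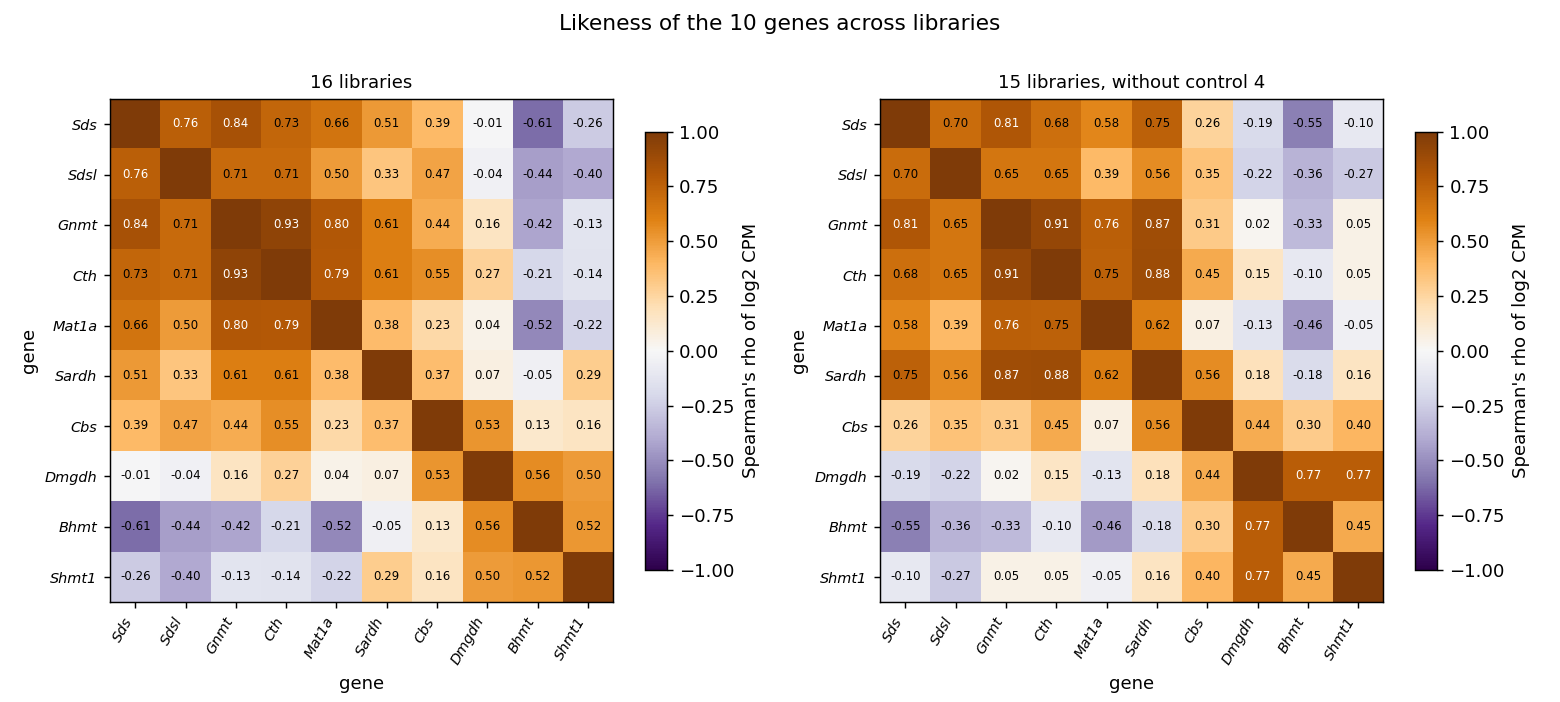
Spearman's rank correlation of log2 CPM between all pairs of the 10 genes over 16 libraries and without control 4 (15 libraries). Sds, Sdsl, Gnmt, Cth and Mat1a form a block of positive values up to 0.93, and Bhmt is negative with each of them in both panels.

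Outside the list, the genes most like Sds were Slc7a2, a transporter of cationic amino acids, and Got1, the cytosolic aspartate aminotransferase, both at a coefficient of 0.95. Got1 went from 171 to 7401 CPM over the livers and was highest in control 4. Parp16 (0.91) and Cnr2 (0.89) were most like Sdsl. Aldh7a1 (0.94), which makes betaine from its aldehyde and takes part in lysine breakdown, and Upb1 (0.92), an enzyme of pyrimidine breakdown, were most like Sardh. Gnmt was most like Gm9826 (0.96) and the liver glutaminase Gls2 (0.94), and Cth was most like Gm9826 (0.94) and Syf2 (0.94). Gm9826 is a processed pseudogene whose 1299 bases match Ahcy at 99.2%, and how reads shared with Ahcy were counted is not known. Ahcy, the hydrolase of S-adenosylhomocysteine, lies between Gnmt and Cth in the pathway. Mat1a was most like Alg5 (0.95) and Cyp3a13 (0.94), although Pearson's r with Alg5 was 0.59 and 0.92 without control 4, since Alg5 was not raised in that liver (31.0 CPM against a control mean of 30.3). Cbs was nearest to Zfp451 (0.86) and AI597479 (0.84), Dmgdh to Bmp1 (0.87) and Nnat (0.86), and Shmt1 to E330009J07Rik (0.89) and Gm20319 (0.87). The genes nearest to Bhmt were its own copies Gm5096 (0.99) and Bhmt-ps1 (0.98).

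Around the 10 genes, 65 of 66 listed genes of serine, glycine, folate, methionine and sulfur metabolism and their regulators could be tested, and 0 passed in edgeR in any comparison. At an unadjusted p below 0.05 there were 6 of 65 for high protein against low protein and 13 of 65 against low fat, where the shares over all genes were 5.17% and 9.08%. Their median log2 fold change was -0.02 against low protein and 0.04 against low fat, below the 0.47 and 0.46 of the 10 genes.

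The list for serine synthesis was the one with all members on 1 side: 0 of 4 were higher and 4 of 4 lower with high protein, against either high-carbohydrate diet. Phgdh, which starts serine synthesis, was scarce in all livers. It was at 0.261, 0.140, 1.32 and 0.399 CPM in control and at 0.213, 0.529, 0.433 and 0.459 CPM with high protein. With low protein it was at 0.549, 0.992, 0.949 and 1.10 CPM, and with low fat at 0.965, 0.878, 0.466 and 2.67 CPM. All high-protein livers lay below all low-protein livers, as for 3.47% of all genes (log2 fold change -1.14, edgeR adjusted p = 0.96). This was the opposite order from Sds. Psat1, the next enzyme, was at -0.22 against low protein and -0.87 against low fat, with all groups overlapping. Control 3 held the most kidney transcripts of the 16 livers and high protein 1 the least. Psat1 was at 4.72 CPM in control 3 and 0.276 CPM in high protein 1, and Phgdh at 1.32 and 0.213 CPM. The part of kidney transcripts in the levels of these 2 scarce genes was not tested.

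Among methionine cycle partners, Ahcy was at 1613, 2165, 1619 and 8389 CPM in control and at 2985, 2307, 2157 and 4095 CPM with high protein. It held 1400 to 1788 CPM with low protein and 1280 to 1980 CPM with low fat, below all high-protein livers. Such a separation from both diets was seen for 1.22% of all genes. Its log2 fold change was 0.81 against low protein (SE 0.43, edgeR adjusted p = 0.96) and 0.85 against low fat (SE 0.43, adjusted p = 0.56). With high protein Nnmt, which also uses S-adenosylmethionine, was 4.57-fold higher than with low protein, at 206.9 ± 136 against 45.3 ± 12.2 CPM (SD, n = 4). The livers of these diets did not overlap, as for 3.15% of all genes in that direction (edgeR adjusted p = 0.921). With low fat Nnmt was at 35.9 to 104.8 CPM, which overlapped the 88.4 to 384 CPM of the high-protein livers. Ahcy and Nnmt were both highest in control 4.

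In the folate list, Mthfd1l, the mitochondrial formate-forming enzyme, was at 11.1, 4.76, 4.79 and 19.9 CPM with high protein and 2.80, 3.48, 3.75 and 3.04 CPM with low protein. This 3.1-fold difference had no overlap, as for 3.15% of all genes in that direction (edgeR adjusted p = 0.892). Control 4, at 5.34 CPM, was within the range of its group. The low-fat livers, at 2.37 to 5.35 CPM, overlapped the high-protein livers.

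Beyond transsulfuration, Gclc, the catalytic subunit of the first enzyme of glutathione synthesis, was at log2 fold changes of -0.67 and -0.76 with high protein against low protein and low fat (edgeR adjusted p = 0.944 and 0.465). Csad, on the way from cysteine to taurine, was at -0.47 and -0.76. Its level was 54.2 CPM in control 3, which held the most kidney transcripts, and 16.45 CPM in high protein 1, which held the least. The part of kidney transcripts in the level of Csad was not tested. In the glycine cleavage list Amt was at -0.22 and -0.28 and Gcsh at 0.03 and 0.08. In the glyoxylate list Agxt was at 0.30 and 0.40 and Hoga1 at 0.01 and 0.23. Pipox, a peroxisomal enzyme that oxidises sarcosine and pipecolate, was at 0.15 and 0.27, in the same direction as Sardh.

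Of the listed regulators, Ppargc1a, a coactivator of gluconeogenic genes, was at 59.4, 30.7, 24.2 and 56.1 CPM with high protein. It was at 11.7, 17.6, 9.08 and 13.1 CPM with low protein, without overlap, as for 3.15% of all genes in that direction (3.31-fold, edgeR adjusted p = 0.921). With low fat it was at 13.7, 18.1, 11.8 and 33.3 CPM, and low fat 4 was within the high-protein range. High protein 1 and 4 were again its highest high-protein livers, and it reached 148 CPM in control 4 against 14.5 to 27.9 CPM in the other controls. Cebpa was at log2 fold changes of -0.28 against low protein and 0.45 against low fat. Of the 11 regulators, 8 were above 0 in each of these comparisons, with medians of 0.11 and 0.20.

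**Figure D5:**
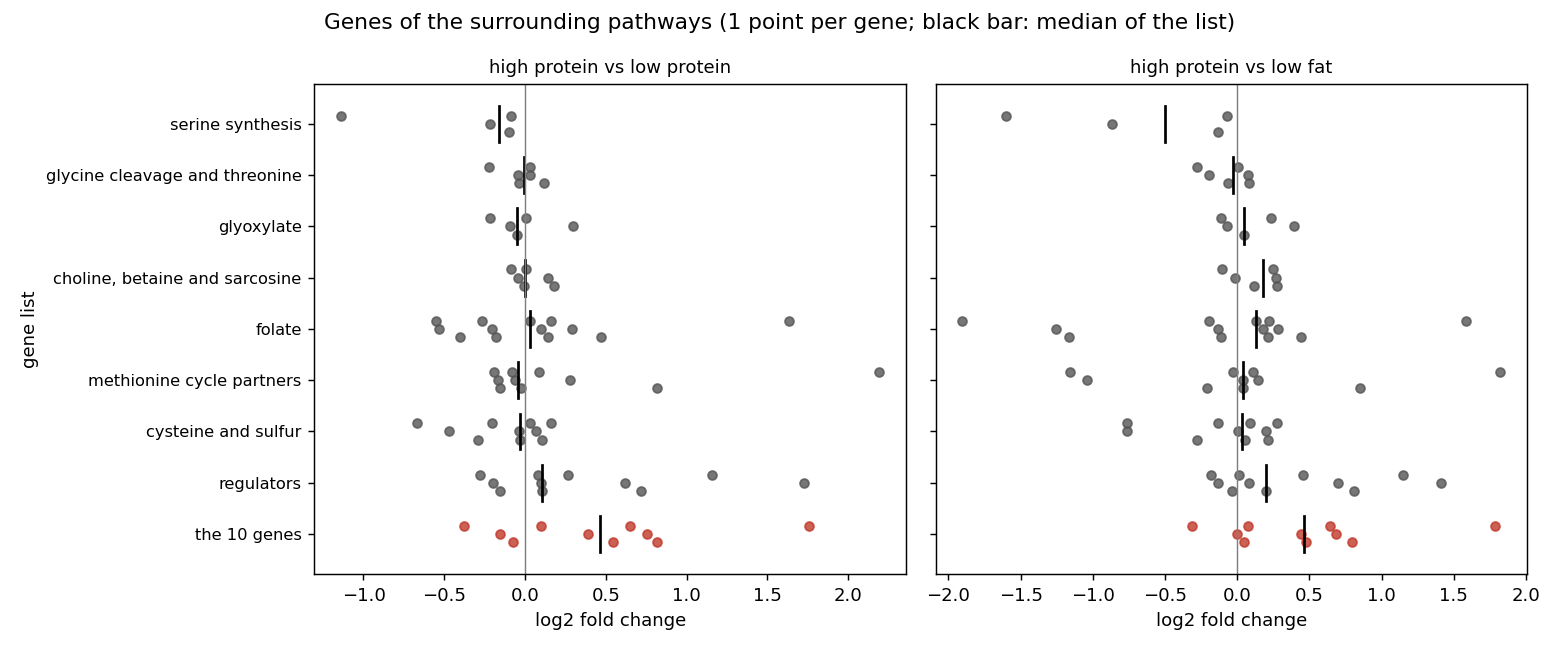
Log2 fold change of high protein against low protein and against low fat for each tested gene of 8 pathway lists (grey) and for the 10 genes (red), with the median of each list as a black bar. The median of the 10 genes is 0.47 and 0.46, and the medians of the 8 lists run from -0.16 to 0.11 and from -0.50 to 0.20.

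To compare genes with each other, levels were divided by the summed exon length in the table (CPM per kilobase). With high protein the order was Mat1a (1450 ± 555, SD, n = 4), Gnmt (1310 ± 192), Bhmt (400 ± 103), Sds (253 ± 151), Sardh (204 ± 24.1), Cbs (177 ± 14.8), Cth (158 ± 47.4), Dmgdh (132 ± 1.1), Shmt1 (48.7 ± 5.97) and Sdsl (8.34 ± 2.7). Neighbours in this order overlapped between livers except Gnmt and Bhmt, Dmgdh and Shmt1, and Shmt1 and Sdsl. With low protein Mat1a (921 ± 146) and Gnmt (899 ± 108) overlapped again and Bhmt followed below them at 519 ± 85.4. Sds, at 74.8 ± 26.2 CPM per kilobase, stood below Cbs (166 ± 8.19), Sardh (156 ± 5.69), Dmgdh (139 ± 2.37) and Cth (93.9 ± 10.5) there, and its livers overlapped those of Cth and of Shmt1 (54.3 ± 3.13). Sdsl, at 4.74 ± 0.533, was the lowest in both diets.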

How the data were processed

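The data are a single gene count table from the authors, with integer counts for 16 liver RNA libraries as deposited. The submitters' processing notes name GRCm38.p6 as the build. Among the tools, they list Subread 1.6.4 with featureCounts, STAR 2.7.0f, edgeR 3.32.1 and Trimmomatic 0.39. Their settings, and whether counting used strand, were not given in the sources used here. How reads shared by overlapping genes on opposite strands, or by near-identical copies, were counted is therefore not known. Libraries were made with a directional kit, per the labels' protocols. Symbols came from GENCODE M21, of which 54723 of 54752 gene identifiers matched.

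Genes passing filterByExpr (17833, all 10 members among them) were fitted in edgeR 4.0.16 (R 4.3.3; TMM factors, glmQLFit, 16 libraries, 4 diet means), and contrasts were tested two-sided at an adjusted p of 0.05. CPM use TMM-scaled library sizes. Likeness used log2 CPM with a prior count of 2. Transcripts were compared with BLAST 2.17.0. Of these steps, the edgeR fit was tested on simulated counts, for high protein against control. The simulation had the same dispersion for all genes and no outlying library. Alternatives were other size factors, DESeq2 1.42.0, limma-voom (limma 3.58.1), other filters, the compared groups alone, a replicate block, a kidney covariate and leaving out each library. Named genes are all members, the 2 genes most like each, and the 2 smallest joint p-values of each pathway list; Bhmt2, kidney genes, and overlapping or copied genes were named outside this rule. The values of 1 gene the rule names are not reported here. The members and lists were chosen with earlier results of these data known.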

Additional observations from a re-analysis of the deposited data

Results flagged for a closer look

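In a group of 4 livers, a single value was marked where its gap to the nearest other value, divided by the whole range of the group, was above the critical value of Dixon's test at 95%. Of 40 groups tested (10 genes in 4 diets), 7 passed, each for its highest value. Chance marks about 1 in 20 of independent groups of normal values. These CPM need not be normal and several genes vary together, so the count is not measured against that rate. Control 4 was the high value in 4 of the 7. Its gap was 0.982 of the range for Sds (2140 CPM against a nearest value of 206), 0.976 for Sdsl (116 against 10.4), 0.949 for Mat1a (19040 against 3817) and 0.93 for Cth (1574 against 330.4).

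Bhmt was marked in 2 diets, in each for the liver numbered 1. The gap was 0.842 in control (control 1 at 3632 CPM, the next at 1992) and 0.878 with low protein (low protein 1 at 3720 CPM, the next at 2790). Gnmt was marked with high protein at 0.86, for high protein 4 at 1923 CPM with the next at 1502.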

How the results depend on the processing

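Of the log2 fold changes of the 10 genes under all alternatives, 1663 kept their direction and side of the threshold, 76 reversed and 1 passed the threshold. High protein against low protein kept 249 of 250 and against low fat 234 of 250. The smallest values, those of Bhmt, Dmgdh, Cbs and Shmt1, crossed 0 under several settings. With 4 livers a diet and 1 outlying control, the spread between livers is wide in comparisons with control; the part of depth was not tested. Except where a left-out liver is named, the cause of a change was not tested.

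Genes passing an adjusted p of 0.05 numbered 0 in edgeR in every comparison, with the counts at an unadjusted p given above as percentages. DESeq2 called 1 gene for high protein against control, 10 for low protein against control, 4 for low fat against control, 23 for high protein against low protein, 81 against low fat, 34 against the mean of the other diets and 67 in the joint test. Voom (limma) called 1 gene against low fat and 1 against the mean of the other diets, the fit of the compared groups alone 16 against low fat, and the fit with no low-count filter 4 against the mean. DESeq2 gave no p for Sdsl and Cth. None of these called any of the 10 genes. Of the 10 genes, those at an unadjusted p below 0.05 ran over all alternatives from 0 to 6 for high protein against control, 0 to 7 for low protein against control (DESeq2 3, replicate block 2, compared groups alone 2), 0 to 6 for low fat against control (3, 3 and 1), 1 to 6 for high protein against each high-carbohydrate diet and against the mean, and 2 to 7 in the joint test (replicate block 3).

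For high protein against control, voom with sample quality weights reversed Sds (0.78), Sdsl (0.29), Gnmt (0.31), Mat1a (0.31), Cth (0.46), Bhmt (-0.14) and Shmt1 (-0.07); Bhmt was at 0 with RLE factors and with DESeq2, and Dmgdh at 0.04 with upper-quartile factors. Voom gave -0.11 for Shmt1 in low fat against control and 0.45 for Sdsl in high protein against the mean of the other diets. With the kidney covariate Cbs was at -0.01 against low protein, Shmt1 at -0.06 against low fat, and Sds at 0.05 in low fat against low protein. Cbs against low fat was at 0.01 with RLE factors, DESeq2, no filter and the CPM filter. Dmgdh against the mean was at 0 with upper-quartile factors and the CPM filter.

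Leaving out 1 liver at a time, high protein against control ran from -1.05 to 1.14 for Sds, -1.82 to 0.51 for Sdsl, -0.28 to 0.40 for Gnmt, -0.76 to 0.57 for Mat1a, -0.66 to 0.67 for Cth, -0.08 to 0.07 for Dmgdh, -0.16 to 0.33 for Bhmt and -0.05 to 0.20 for Shmt1. For the 5 genes first named, the value above 0 was the one without control 4. Low protein against control ran from -0.12 to 0.05 for Sardh and -0.02 to 0.14 for Dmgdh, and low fat against control from -2.31 to 0.01 for Sdsl and -0.12 to 0.13 for Shmt1. High protein against low fat ran from -0.10 to 0.16 for Cbs and -0.03 to 0.13 for Shmt1. Low fat against low protein ran from -0.26 to 0.06 for Bhmt, -0.25 to 0.20 for Sds, -0.06 to 0.21 for Cbs and -0.08 to 0.15 for Cth. Against the mean of the other diets high protein ran from -0.02 to 0.04 for Dmgdh, -0.09 to 0.06 for Shmt1, -0.28 to 0.61 for Sdsl and -0.07 to 0.04 for Cbs. Genes called ran from 0 to 109 for low fat against control (without control 3), 0 to 2 for high protein against low protein (without high protein 3), 0 to 19 against low fat (without control 4), 0 to 74 against the mean (without control 4, where 0 to 1 of the 10 genes passed) and 0 to 1 in the joint test (without high protein 3).

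The replicate numbers gave no clear pairing of the livers, though this check cannot exclude one. Of 24 same-numbered pairs, 8 had correlated deviations over 0.1 (range -0.2 to 0.3), and 6 of 16 livers correlated best with their own number. With a replicate block 0 genes were called in each comparison; Sds was at 1.5 against low protein and 1.64 against low fat, Cbs at 0 against low fat and Sdsl at 0.05 against the mean of the other diets.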
